A study of Homo sapiens with 8 samples.

Results

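The aminoacyl-tRNA synthetases are the enzymes that load each tRNA with its amino acid. Their transcripts were picked by gene symbol (the 1-letter amino acid code followed by ARS, with or without a suffix, together with EARS2, EPRS, FARSA, FARSB, FARS2 and TARSL2) and the rule itself uses no measured value. The rule found 38 of the 21059 genes analyzed, 21 for cytosolic enzymes and 17 for mitochondrial ones, and all 38 averaged at least 5 CPM (read counts scaled to a common library size). Symbols are the older ones of the table, so that AARS stands for AARS1 and TARSL2 for TARS3.

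MDA-MB-157, an established breast cancer line labeled ER-negative, was cultured for 48 hours in serum-free medium with 5 mM glucose (low glucose, the control, n = 4 libraries, LG1 to LG4) or 25 mM glucose (high glucose, a culture model of hyperglycemia, n = 4, HG1 to HG4). All cells were first conditioned in low-glucose medium, and the labels of the 8 libraries do not name an osmotic control such as mannitol. RNA was sequenced from flasks of 1 cell line, and the labels call the 4 libraries of a group replicates without saying whether they came from separate cultures, so p-values measure the spread between these libraries only. In bulk RNA, a lower level cannot be told apart from fewer cells of a kind with the transcript, and CPM is a share of the library, not an amount per cell.

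The libraries held an estimated 9721637 to 12482546 reads, and 3 reads, the limit that a count of 0 allows, corresponded to 0.212 to 0.267 CPM. The members had at least 34 reads in every library (PARS2) and as many as 4465 in the library with the fewest (TARS). HG1 stood apart from its group: squared differences per gene were 11.1 to 18.8 times counting noise in the 3 pairs with HG1, 2.57 to 4.36 times in the other high-glucose pairs and 1.45 to 2.25 times at low glucose. Of 12 marker genes, 10 had a row: the epithelial keratins KRT8 and KRT18 stood at 131 and 234 CPM at low glucose, vimentin (VIM) at 4091 CPM, CDH1 at 0.949 CPM, and ESR1 and the leukocyte gene PTPRC at 0.121 and 0.0997 CPM, both under the limit of 3 reads. The hormone receptor gene PGR was above that limit, at 4.76 CPM with low and 5.345 CPM with high glucose, and was not called. Of the 10, 4 were called lower, KRT8, KRT18 and VIM (88.3, 170.1 and 2967 CPM with high glucose) and ERBB2 (63.6 to 39.2 CPM), and 2 were called higher, the epithelial gene EPCAM (4.50 to 6.996 CPM) and the endothelial gene PECAM1 (1.0001 to 2.13 CPM). Whether such shifts bear on the synthetases was not tested.

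A synthetase activates its amino acid with ATP and transfers it to the tRNA, which then carries it to the ribosome. The cytosol and the mitochondrion each use their own set, nearly all encoded by separate nuclear genes, although KARS and GARS encode the enzymes of both compartments and QARS serves the cytosol while mitochondria make glutaminyl-tRNA by another route. The enzymes fall into class I and class II by the fold of the catalytic domain, and 8 cytosolic enzymes assemble with the scaffold proteins AIMP1, AIMP2 and EEF1E1 into the multi-synthetase complex. Uncharged tRNA activates the kinase GCN2 (EIF2AK4), which phosphorylates eIF2alpha and favors translation of ATF4, a transcription factor known to act on many genes of amino acid supply and on several cytosolic synthetases.

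Transcripts of the synthetases were mostly lower at high glucose. By limma with Benjamini-Hochberg adjustment over all genes, 23 of the 38 members had an adjusted p under 0.05 and were lower (called lower), 6 were called higher and 9 were not called. Among all genes tested 24.8% were called lower and 22% higher, and among the 11297 genes of at least 5 CPM, the better comparison for these abundant transcripts, 33.3% and 33.6%. In 22 members every high-glucose library lay below every low-glucose library, which held for 32.5% of genes of at least 5 CPM. A fall of at least 0.5 on the log2 scale was called in 14 of 38 members against 17.5% of those genes. The median log2 change was -0.22 over the 38 members and -0.01 over genes of at least 5 CPM.

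**Figure D1:**
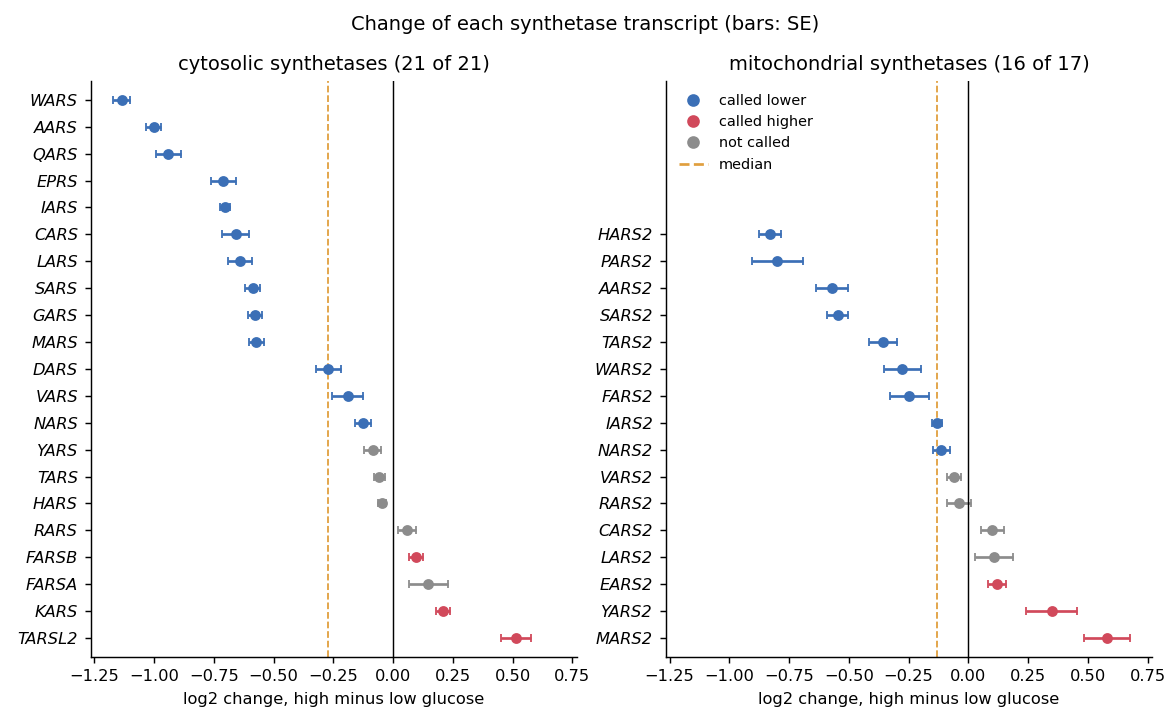
Log2 change of each synthetase transcript on the log2(CPM + 1) scale (x axis, high minus low glucose, bars SE from limma, 4 libraries per group) for the 21 cytosolic (left) and 16 of the 17 mitochondrial enzymes (right), colored by call. Changes run from -1.14 (WARS) to 0.51 (TARSL2) among cytosolic and from -0.83 (HARS2) to 0.58 (MARS2) among mitochondrial enzymes, and dashed lines mark the medians over all 21 and 17, -0.27 and -0.13.

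Among the cytosolic enzymes 13 of 21 were called lower and 3 higher, beside 33.3% and 33.6% of genes of at least 5 CPM. WARS (ENSG00000140105.18, chr14:100333790-100376327 on GRCh38), which charges tryptophan and is known as an interferon-inducible gene, stood at 405, 403, 382 and 398 CPM in LG1 to LG4 and at 179, 170.5, 181 and 190.4 CPM in HG1 to HG4. Every high-glucose library was thus under 200 CPM and every low-glucose library over 380, a log2 change of -1.14 ± 0.04 (SE, adjusted p = 1.78e-06). AARS (ENSG00000090861.15, chr16:70252298-70289506), the alanine enzyme, had 318, 316, 328 and 312 CPM under low and 154, 153, 165 and 163 CPM under high glucose. Its log2 change was -1.001 ± 0.03 (adjusted p = 1.6e-06), with means of 319 ± 6.85 (SD, n = 4) and 159 ± 6.14 CPM that leave no overlap between the groups.

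QARS (ENSG00000172053.18, chr3:49095932-49104757), which charges glutamine, was measured at 92.5, 93.6, 87.9 and 93.6 CPM in the low-glucose libraries and 51.2, 48.5, 46.8 and 43.2 CPM in the high-glucose libraries, again without overlap. Its log2 change was -0.94 ± 0.05 (adjusted p = 1.14e-05). EPRS (ENSG00000136628.18, chr1:219968600-220046505) is a fusion enzyme that charges both glutamate and proline. It had 351, 341, 350.2 and 346 CPM under low and 191, 212, 216 and 229.6 CPM under high glucose, with HG1 the lowest of its group. The fall of 0.71 ± 0.05 (adjusted p = 4.06e-05) was 0.66 without HG1.

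A further 6 cytosolic enzymes fell by at least 0.5 on the log2 scale. IARS, the isoleucine enzyme, went from 500.1 ± 4.28 to 307 ± 6.70 CPM. The leucine enzyme LARS went from 249.01 ± 4.75 to 159.7 ± 11.3 CPM, the cysteine enzyme CARS from 97.2 ± 4.60 to 61.2 ± 4.55 CPM and the serine enzyme SARS from 272 ± 5.98 to 181 ± 7.55 CPM. GARS, the glycine enzyme of cytosol and mitochondria, had 377, 369, 361 and 363 CPM under low and 251, 238, 239.9 and 256 CPM under high glucose, for a log2 change of -0.58 ± 0.03 (adjusted p = 8.67e-06). MARS, which charges methionine for initiation as well as elongation, had 162, 162, 151 and 157 CPM under low and 109, 107, 102 and 106 CPM under high glucose, for a log2 change of -0.57 ± 0.03 (adjusted p = 1.01e-05). No library of one group reached the values of the other in any of these 6, and their calls remained with each library left out in turn.

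Smaller falls were called for DARS (aspartate, log2 change -0.27), VARS (valine, -0.19) and NARS (asparagine, -0.13). The call for VARS was close to the threshold (adjusted p = 0.0463) and was lost without any 1 of the libraries LG1, LG2, LG3, LG4, HG2, HG3 and HG4, with adjusted p of 0.0541 to 0.113. The enzymes for tyrosine (YARS, log2 change -0.09), threonine (TARS, -0.06), histidine (HARS, -0.05), arginine (RARS, 0.06) and 1 phenylalanine subunit (FARSA, 0.15) were not called. YARS was called lower without HG1 (log2 change -0.12, adjusted p = 0.00724), and TARS without HG4 (-0.07, adjusted p = 0.0392). YARS, TARS and HARS were also called lower under quantile normalization and with library weights (adjusted p of 4.48e-04 to 0.0499). With the length trend removed, FARSA (log2 change 0.23, adjusted p = 0.00225) and RARS (0.12, adjusted p = 0.0245) were instead called higher. NARS lost its call in that setting (-0.097, adjusted p = 0.0608). TARS stood at 401 ± 8.05 CPM (SD, n = 4) with low and 385 ± 7.80 CPM with high glucose, and its groups overlapped.

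The 3 cytosolic enzymes called higher were KARS, FARSB and TARSL2. KARS, which charges lysine in both compartments, had 117, 119.7, 118 and 118 CPM under low and 144, 132, 134 and 138 CPM under high glucose, so that the groups were separate and the change was 0.21 ± 0.03 (adjusted p = 9.46e-04). Its call was lost under quantile normalization (log2 change 0.08, adjusted p = 0.0751). TARSL2, the second cytosolic threonine enzyme, had 11.1, 13.3, 11.1 and 11.4 CPM under low and 17.6, 16.5, 17.4 and 17.0 CPM under high glucose, for a log2 change of 0.51 ± 0.06 (adjusted p = 4.81e-04). FARSB, the beta subunit of the phenylalanine enzyme, moved from 57.3, 56.5, 58.7 and 58.0 CPM to 60.3, 61.1, 65.2 and 59.9 CPM. These groups did not overlap, but the log2 change was only 0.09 ± 0.03 (adjusted p = 0.0365) and the call was lost without LG1, LG2, LG3, LG4 or HG2, with adjusted p of 0.0527 to 0.0923.

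The members of the multi-synthetase complex did not move as a block. Of its 8 synthetases 6 were called lower (EPRS, IARS, LARS, MARS, QARS and DARS), RARS was not called and KARS was called higher, with a median log2 change of -0.61. Among the 13 cytosolic synthetases outside the complex 7 were called lower and 2 higher, with a median of -0.13. Of genes of at least 5 CPM 33.3% were called lower and 33.6% higher, with a median of -0.01. The scaffold EEF1E1 (AIMP3) went the other way from most of the enzymes: it had 18.4, 15.7, 15.5 and 17.8 CPM under low and 32.0, 29.1, 31.4 and 24.6 CPM under high glucose. Its rise of 0.76 ± 0.10 on the log2 scale (adjusted p = 5.65e-04) separated the groups. AIMP2 had 62.1, 64.2, 67.9 and 61.7 CPM under low and 65.0, 53.4, 52.3 and 51.3 CPM under high glucose, where only HG1 lay within the low-glucose range. Its log2 change of -0.21 was not called (adjusted p = 0.0665) but was -0.28 and called without HG1 (adjusted p = 0.00123). AIMP1 had 57.0, 49.9, 45.7 and 49.3 CPM under low and 51.6, 45.4, 45.1 and 50.4 CPM under high glucose, with overlapping groups and no call (log2 change -0.07, adjusted p = 0.529).

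Of the 17 mitochondrial enzymes 10 were called lower and 3 higher, beside 33.3% and 33.6% of genes of at least 5 CPM. HARS2 (ENSG00000112855.16, chr5:140691455-140699305), the mitochondrial histidine enzyme, had 115, 105, 112 and 112 CPM under low and 66.6, 62.5, 57.8 and 61.2 CPM under high glucose. Its groups were far apart, with a log2 change of -0.83 ± 0.05 (adjusted p = 1.33e-05). PARS2, which charges proline, had 6.42, 6.38, 7.56 and 6.12 CPM under low and 3.32, 2.71, 3.71 and 3.82 CPM under high glucose, for a log2 change of -0.80 ± 0.11 (adjusted p = 7.5e-04). No high-glucose library reached the low-glucose values.

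AARS2 (alanine, log2 change -0.57) and SARS2 (serine, -0.55) also fell. TARS2, for threonine, had 36.3, 31.4, 31.9 and 34.3 CPM under low and 26.7, 24.2, 27.3 and 25.3 CPM under high glucose, which did not overlap (log2 change -0.36 ± 0.06, adjusted p = 0.00196). IARS2, for isoleucine, fell by only 0.13 ± 0.02 on the log2 scale (adjusted p = 0.00204), from 150.3 ± 1.42 to 137 ± 3.64 CPM. Calls for WARS2 (tryptophan, log2 change -0.28), FARS2 (phenylalanine, -0.25) and NARS2 (asparagine, -0.11) were weaker. FARS2 had 11.3, 11.2, 11.5 and 10.6 CPM under low and 10.7, 9.57, 8.33 and 8.44 CPM under high glucose, where HG1 lay within the low-glucose range. The FARS2 call (adjusted p = 0.0424) was lost without any of LG1 to LG4 or HG2 to HG4 (adjusted p of 0.0596 to 0.0981). That for NARS2 was lost without LG1 to LG4, HG1, HG3 or HG4 (0.0539 to 0.0973) and that for WARS2 without LG1 to LG3, HG2 or HG4 (0.052 to 0.0599).

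MARS2, the mitochondrial methionine enzyme, showed the largest rise of all members. Its level was 5.58, 5.30, 6.88 and 6.92 CPM under low and 9.67, 10.1, 10.1 and 8.80 CPM under high glucose, without overlap (log2 change 0.58 ± 0.10, adjusted p = 0.00221). YARS2, for tyrosine, had 8.92, 7.87, 10.6 and 8.45 CPM under low and 12.4, 12.7, 11.8 and 9.87 CPM under high glucose, with HG4 inside the low-glucose range. Its log2 change was 0.35 ± 0.11 (adjusted p = 0.0335), and the call was lost without LG1, LG2, LG4, HG1, HG2 or HG3 (adjusted p of 0.071 to 0.0853). EARS2, for glutamate, had 24.6, 25.7, 25.1 and 23.0 CPM under low and 26.4, 26.6, 26.5 and 27.6 CPM under high glucose, a small separation (log2 change 0.12 ± 0.04, adjusted p = 0.0348) that was no longer called without LG1, LG3, LG4, HG2, HG3 or HG4 (0.0501 to 0.081). VARS2, RARS2, CARS2 and LARS2 were not called, with log2 changes of -0.06, -0.04, 0.10 and 0.11, and LARS2 was called higher without HG1 (0.17, adjusted p = 0.0384). CARS2 was called higher with the length trend removed (0.18, adjusted p = 0.00236).

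**Figure D2:**
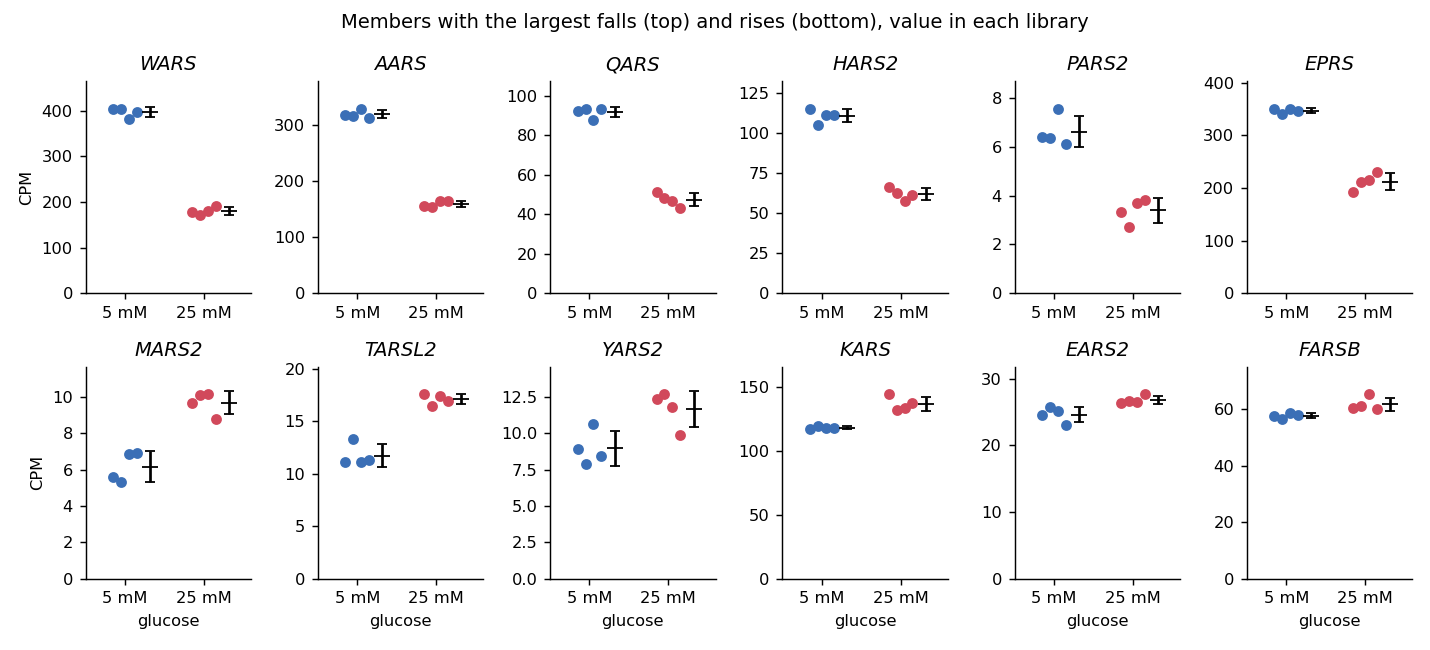
CPM in each library (points, y axis from 0, low glucose blue and high glucose red, with mean and SD, n = 4) of the 6 members with the largest falls (WARS, AARS, QARS, HARS2, PARS2, EPRS) and the 6 with the largest rises (MARS2, TARSL2, YARS2, KARS, EARS2, FARSB) among those called. The groups are separate in all but YARS2, where 1 high-glucose library at 9.87 CPM falls within the low-glucose range.

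Several measurements rest on exons that other genes also use, and whether the counting used strand is not given in the sources used here. An annotated gene on the other strand covers 18.3% of the canonical YARS2 transcript, 7.31% of WARS and 2.15% of MARS (DDIT3). Other members are covered in part too, such as CARS (5.08%), AARS2 (4.90%), TARSL2 (4.60%), NARS2 (3.90%) and DARS (3.68%). Reads from those stretches could therefore not be assigned with certainty. Annotated readthrough transcripts on the same strand share 77.55% of SARS2 and 100% of VARS2, and values of these 2 genes are uncertain for that reason. Of 31-base words, 6.67% in TARS2, 5.74% in RARS2, 3.93% in YARS2, 3.80% in AARS2 and 3.49% in FARSB also occur in a pseudogene or another transcript, as do smaller shares in other members.

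Compartments were compared next. Summed over the 21 cytosolic enzymes, the level was 4226, 4193, 4169 and 4168 CPM in LG1 to LG4 and 3054, 2980.0, 3000.4 and 3080.5 CPM in HG1 to HG4. High-glucose libraries therefore held 0.723 times the low-glucose level (4189 ± 27.3 and 3029 ± 46.5 CPM, SD, n = 4). The 17 mitochondrial enzymes summed to 609 ± 11.1 CPM under low and 513 ± 8.57 CPM under high glucose, 0.843 times. As a mean of log2(CPM + 1) over members, the cytosolic set lay above the mitochondrial set by 2.54 to 2.63 in the low-glucose libraries and by 2.40 to 2.45 in the high-glucose libraries. The gap narrowed by 0.16, with no overlap between the groups, and by 0.28 under quantile normalization. No test was made of this score over chosen members.

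Calls of the cytosolic and the mitochondrial enzyme for the same amino acid were then set side by side. In 19 pairs formed by amino acid (EPRS, TARS2 and FARS2 each enter 2), both enzymes were called lower in 7, both higher in 0, and the calls were opposite in 4. Among single genes of at least 5 CPM 33.3% were called lower and 33.6% higher, and no share was computed for pairs of genes. With 13 of 21 cytosolic and 10 of 17 mitochondrial enzymes called lower, many pairs with both lower can arise from these counts alone. Whether partners for the same amino acid moved together was not tested. MARS fell as MARS2 rose, and the log2 ratio of MARS to MARS2 went from 4.48 ± 0.21 (SD, n = 4) to 3.32 ± 0.10, a difference of -1.15 ± 0.12 (SE). EPRS fell as EARS2 rose, with a difference of -0.83 ± 0.06 in their log2 ratio. In the other direction, TARSL2 rose and TARS2 fell (difference 0.87 ± 0.10), and FARSB rose and FARS2 fell (0.34 ± 0.10). Since the calls for EARS2, FARSB and FARS2 were lost in several fits with 1 library left out, only the MARS and TARSL2 pairs had opposite calls in each such fit.

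In other pairs 1 enzyme fell more than its partner or the partner was not called. The tryptophan enzymes were both lower, WARS by 1.14 and WARS2 by 0.28 on the log2 scale (log2 changes -1.14 and -0.28), and the difference of -0.86 ± 0.10 in their log2 ratio separated the groups. For isoleucine (difference -0.57 ± 0.02) and alanine (-0.43 ± 0.07) both enzymes were again called lower and the cytosolic transcript fell more. For leucine (-0.75 ± 0.06) and cysteine (-0.76 ± 0.02) the cytosolic enzyme fell, while LARS2 and CARS2 were not called, with log2 changes of 0.11 and 0.10. For histidine the order was turned around, with a difference of 0.78 ± 0.05 that came from HARS2. The serine (-0.04 ± 0.03), asparagine (-0.01 ± 0.05) and EPRS to PARS2 (0.09 ± 0.10) ratios overlapped between the groups. In all, the cytosolic enzyme changed toward lower levels relative to its mitochondrial partner in 11 of 19 pairs, 7 of them without overlap, and toward higher levels in 8, 5 of them without overlap. Lack of overlap was common in these data: it held for 7342 of the 11297 single genes of at least 5 CPM. No such share was computed for ratios of genes.

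**Figure D3:**
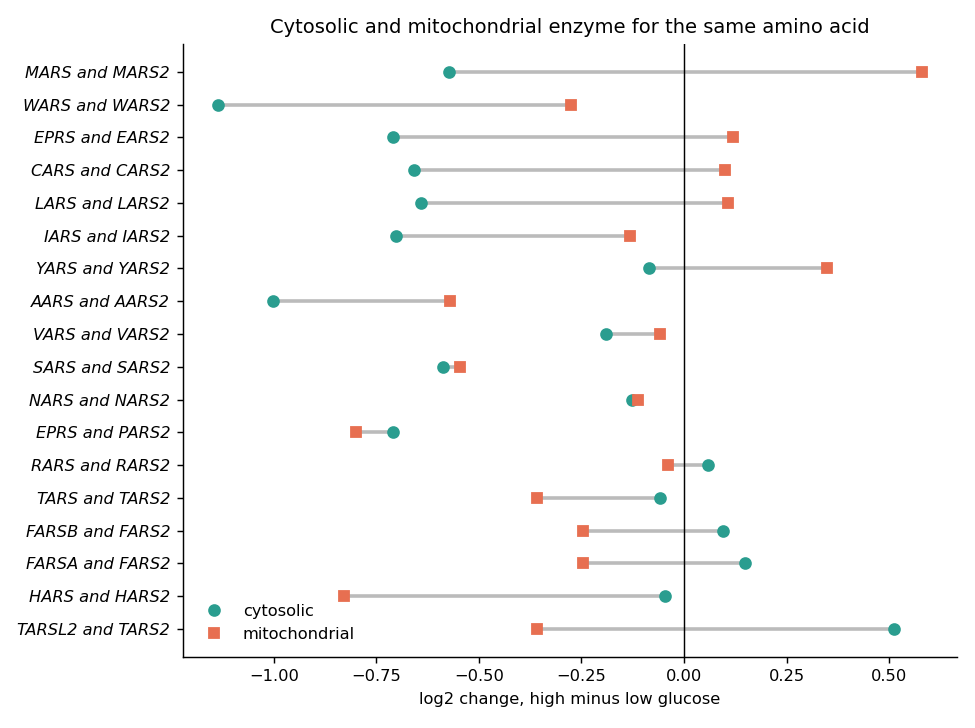
Log2 change on the log2(CPM + 1) scale (x axis, high minus low glucose) of the cytosolic (circles) and mitochondrial enzyme (squares) for the same amino acid, 18 of the 19 pairs ordered by the difference between the changes (y axis). MARS and MARS2 lie on opposite sides of 0 at the top (-0.57 and 0.58), and TARSL2 and TARS2 at the bottom (0.51 and -0.36).

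When the members were split by catalytic class, which the choice of members did not use, the medians of the 2 compartments showed opposite orders. Cytosolic class I enzymes were called lower in 7 of 9 and higher in 0, with a median log2 change of -0.64, whereas cytosolic class II enzymes were called lower in 5 of 11 and higher in 3, with a median of -0.06. In mitochondria, class I enzymes were called lower in 2 of 9 and higher in 3 (median 0.10), and class II enzymes were called lower in 8 of 8 (median -0.48). The 3 mitochondrial class I enzymes called higher were MARS2, YARS2 and EARS2, of which the last 2 lost their calls without single libraries, as given above. HARS2, PARS2, AARS2, SARS2 and TARS2 were among the mitochondrial class II enzymes called in every such fit, so that 6 or 7 of the 8 were called with 1 library left out, FARS2 and NARS2 being those lost. EPRS, which has a domain of each class, was left out of this split. The 4 medians stand beside -0.01 for genes of at least 5 CPM, and the counts beside 33.3% called lower and 33.6% higher among those genes. Mitochondrial class I lay under both of these shares. No test of the split was made.

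**Figure D4:**
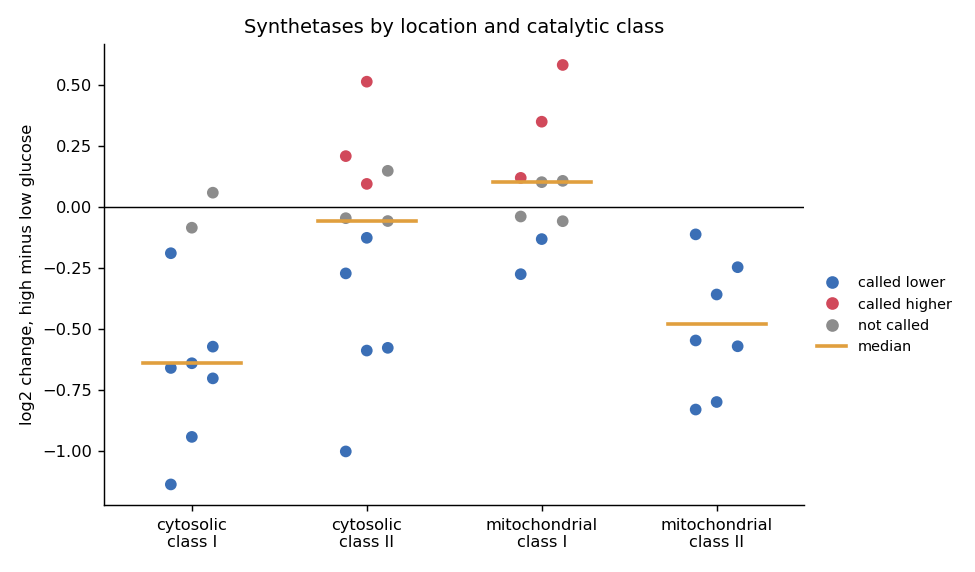
Log2 change on the log2(CPM + 1) scale (y axis, high minus low glucose) of each synthetase by compartment and catalytic class (x axis), colored by call, with the median of each full set as a line and 7 of the 8 mitochondrial class II enzymes plotted. Those 7 lie below 0 (median of all 8, -0.48), and the mitochondrial class I enzymes lie on both sides (median 0.10).

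Relative to transcript length, GARS, WARS and TARS were the most abundant synthetases at low glucose, at 151 ± 2.99, 150.5 ± 4.02 and 150.1 ± 3.01 CPM per kb (SD, n = 4), which did not differ beyond their spread. At high glucose TARS led with 144 ± 2.92 CPM per kb, GARS followed with 101 ± 3.53 and SARS with 94.4 ± 3.94, and WARS had dropped to rank 9 of 21 with 68.3 ± 3.09 CPM per kb. At that rank it was within the spread of KARS (68.7 ± 2.77) and IARS (68.5 ± 1.495). In mitochondria HARS2 ranked first at low glucose (45.0 ± 1.70 CPM per kb) and at rank 3 of 17 at high glucose (25.1 ± 1.48), behind IARS2 (38.8 ± 1.03) and CARS2 (30.99 ± 1.85). The lowest levels were those of MARS2 at low glucose (2.04 ± 0.28 CPM per kb) and PARS2 at high glucose (1.44 ± 0.21).

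**Figure D5:**
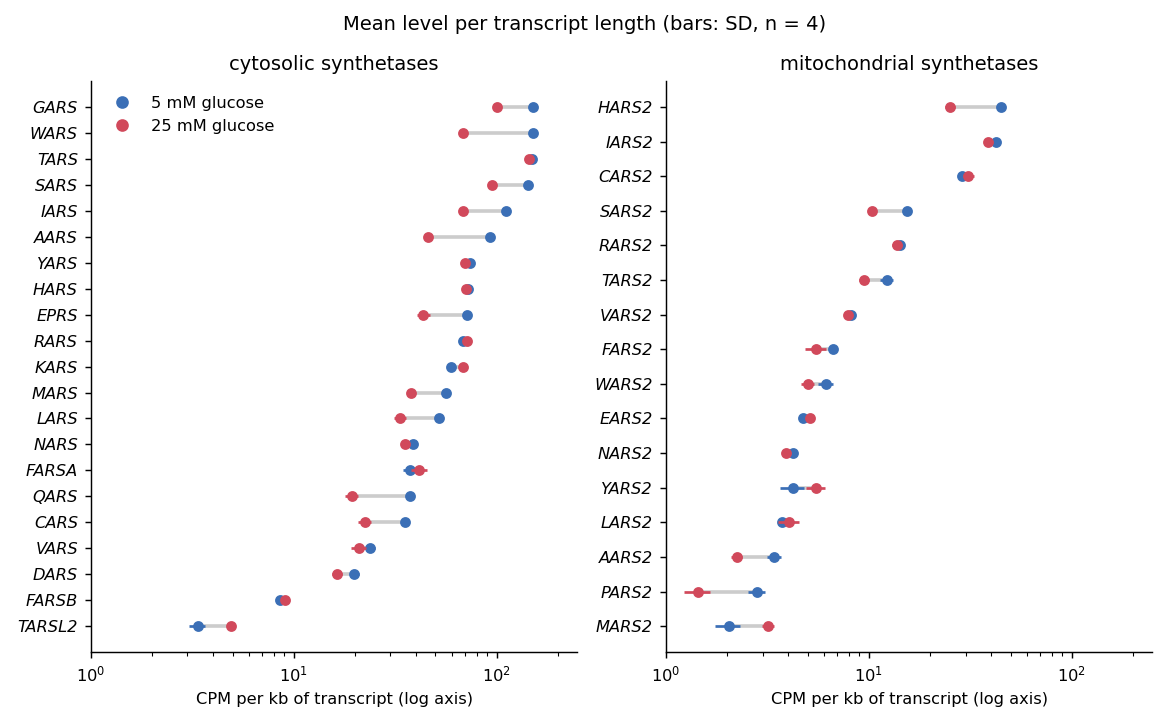
Mean level in CPM per kb of canonical transcript (x axis, log scale, bars SD, n = 4) at low (blue) and high glucose (red) for the 21 cytosolic and 16 of the 17 mitochondrial synthetases, ordered by level at low glucose within its compartment. TARS stays near 150 CPM per kb, at 150.1 and 144, while WARS moves from 150.5 to 68.3.

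HARS and HARS2 are transcribed away from each other from starts 85 bases apart in RefSeq, so that both histidine enzymes share 1 upstream region. HARS had 140.1, 144, 141 and 141 CPM under low and 139, 136, 134 and 139 CPM under high glucose, without overlap. Its log2 change of -0.05 (adjusted p = 0.0715) stood beside -0.83 for HARS2. HARS was called lower under quantile normalization (-0.16, adjusted p = 4.48e-04) and with library weights (-0.06, adjusted p = 0.0267). The HARS and HARS2 transcripts share no 31-base word. The 84 bases between the starts (chr5:140691371-140691454 on GRCh38.p14, plus strand, HARS to the left and HARS2 to the right) are shown because both genes start at their ends.
HARS to HARS2: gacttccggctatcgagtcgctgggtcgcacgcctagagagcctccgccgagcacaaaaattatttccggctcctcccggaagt

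Other members also had a gene starting nearby on the other strand. KARS starts 108 bases from TERF2IP, a telomere-binding protein gene, which rose from 47.8 ± 2.48 to 79.2 ± 6.10 CPM (log2 change 0.71, adjusted p = 8.7e-05) beside 0.21 for KARS. RARS2 (-0.04, not called) starts 148 bases from ORC3, a replication origin gene, which fell by 0.36 on the log2 scale (adjusted p = 5.66e-04). SARS2 (-0.55) starts 181 bases from the mitochondrial ribosomal gene MRPS12 (0.40, adjusted p = 0.0614, overlapping groups). Values lay close together for EARS2 (0.12), which starts 352 bases from UBFD1 (0.12, adjusted p = 0.00837, called higher). The same held for FARS2 (-0.25), 57 bases from LYRM4 (-0.24, adjusted p = 0.063, not called). They lay further apart for WARS (-1.14) and WDR25 (-0.42, adjusted p = 0.0804, not called) and for WARS2 (-0.28) and WARS2-AS1 (-0.80, adjusted p = 0.00308). TARS (-0.06) also differed from TARS1-DT (-0.80, adjusted p = 0.00303), which had only 1.63 CPM at low glucose.

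Because ATF4 is known to act through the C/EBP-ATF response element, the word TGATGNAA was looked for on both strands in promoters from 250 bases before to 50 after each start in the RefSeq table (GRCh38.p14), where 30 of 38 members had an entry (16 cytosolic and 14 mitochondrial). DARS, LARS, TARSL2, VARS, YARS, AARS2 and VARS2 were among those with none. The word was present in 7 of 16 cytosolic members and in 1 of 14 mitochondrial members, compared with 4.46% of 27305 genes of the table and 2.59% of 9032 genes of at least 5 CPM. The 8 sites are shown 5′ to 3′ along the gene, 30 bases each, with the word in capitals. It did not overlap either other word searched. Counted from the start (1 is the first transcribed base and -1 the base before it), the word begins at -187 in AARS, -33 in GARS (from its second listed start), -13 in IARS, -4 in MARS, -2 in CARS, 3 in TARS, 15 in NARS and -197 in YARS2.
AARS (chr16:70289675-70289704, minus strand): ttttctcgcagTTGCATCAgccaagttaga
CARS (chr11:3057407-3057436, minus strand): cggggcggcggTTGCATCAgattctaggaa
GARS (chr7:30594834-30594863, plus strand): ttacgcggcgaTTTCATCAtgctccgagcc
IARS (chr9:92293692-92293721, minus strand): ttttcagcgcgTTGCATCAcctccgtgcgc
MARS (chr12:57488053-57488082, plus strand): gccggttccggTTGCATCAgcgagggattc
NARS (chr18:57621804-57621833, minus strand): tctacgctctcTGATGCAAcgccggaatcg
TARS (chr5:33440956-33440985, plus strand): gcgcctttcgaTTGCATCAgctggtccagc
YARS2 (chr12:32756076-32756105, minus strand): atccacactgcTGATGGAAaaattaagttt

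AARS, CARS, IARS, MARS and TARS carry the same 8 letters, TTGCATCA, yet their log2 changes were -1.001, -0.66, -0.70, -0.57 and -0.06. Of the 7 cytosolic members with the word 6 were called lower, 5 of them by at least 0.5 on the log2 scale (median -0.58). Of the 9 cytosolic members with an entry but without the word 4 were called lower, all 4 by at least 0.5 (WARS, QARS, EPRS and SARS), and the median was -0.05. YARS2, the mitochondrial member with the word, was called higher. Across the 234 genes of at least 5 CPM with the word, 34.2% were called lower, and 33.2% of those without it. A match describes letters in the reference, not binding, and no test of the word was made.

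WARS, with the largest fall, had no such word. The word of the interferon-stimulated response element (GAAA, any 2 bases, GAAA), searched on both strands in the same windows, was present at -55 from its second listed start (chr14:100375383-100375412, minus strand), and in EARS2. It is found in 3.86% of promoters of genes of at least 5 CPM and 4.38% of all genes of the table. The E-box CACGTG was present in IARS, CARS2, EARS2 and MARS2, and in 13.1% of genes of at least 5 CPM.
WARS: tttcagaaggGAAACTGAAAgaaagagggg

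Genes tied to the interferon setting of WARS were listed too. Of 8 such genes 5 were called lower and 1 higher, beside 33.3% and 33.6% of genes of at least 5 CPM, with a median log2 change of -0.34. STAT2 and IRF9, both components of the interferon-activated factor ISGF3, fell from 166 ± 5.21 to 81.5 ± 2.46 CPM (log2 change -1.01, adjusted p = 1.51e-06) and from 19.6 ± 2.41 to 9.31 ± 0.656 CPM (-0.997, adjusted p = 1.07e-04). The interferon-induced GTPase gene GBP2 fell by 0.66 on the log2 scale (adjusted p = 0.00361). The list did not move as a block. The gene called higher, named after its value was seen, was IRF1 (log2 change 0.17, adjusted p = 0.00366, groups not overlapping). Another 2 genes were not called, among them ISG15 (-0.25, adjusted p = 0.368), also named after its value was seen.

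Genes of amino acid sensing and synthesis were examined because ATF4 is known to act on them as well as on synthetases. Of 24 genes of the GCN2 and ATF4 arm 15 were called lower and 6 higher, with a median log2 change of -0.27, beside 33.3% and 33.6% of genes of at least 5 CPM. Lower transcripts included PHGDH and PSAT1, which make serine (232 ± 5.10 to 99.8 ± 8.81 CPM and 150.0 ± 5.38 to 67.0 ± 3.17 CPM), and ASNS, which makes asparagine (141 ± 3.44 to 66.5 ± 3.25 CPM), with log2 changes of -1.21, -1.15 and -1.08 (adjusted p = 7.14e-06, 2.2e-06 and 2.01e-06). PPP1R15A, which directs the dephosphorylation of eIF2alpha, rose by 1.16 on the log2 scale (adjusted p = 5.99e-06). Named after their values were seen, the kinase gene EIF2AK4 fell by 0.50 (adjusted p = 0.00173), whereas the ATF4 transcript rose by 0.27 (adjusted p = 0.0141), from 253 ± 6.91 to 306 ± 30.2 CPM. ATF4 is regulated largely in translation, which these data do not measure.

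Of 17 amino acid transporters 6 were called higher and 4 lower, shares near or under the 33.6% and 33.3% of genes of at least 5 CPM. SLC3A2, the heavy chain of several exchangers, had 258, 261, 259 and 258 CPM under low and 966, 811, 734 and 687 CPM under high glucose, a rise of 1.61 ± 0.10 on the log2 scale (adjusted p = 1.9e-05). SLC38A2, a sodium-coupled neutral amino acid carrier, rose from 966 ± 15.3 to 2059 ± 28.3 CPM (log2 change 1.09, adjusted p = 1.56e-06). The cystine carrier SLC7A11 had a log2 change of -1.001 (adjusted p = 2.21e-05) and the alanine and serine carrier SLC1A4 one of -0.38 (adjusted p = 3.08e-05), both lower.

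Genes acting on tRNA before or beside charging were called in both directions, and in each list the share called higher was near or under the 33.6% of genes of at least 5 CPM, as was the share called lower (33.3% of those genes) except among the 7 proofreading genes. Of 28 genes of tRNA processing and export 7 were called higher and 6 lower: the tRNA exporter XPOT fell from 271 ± 4.50 to 162 ± 6.25 CPM (log2 change -0.74, adjusted p = 3.73e-06) and the splicing endonuclease subunit TSEN15 by 0.52, while the methyltransferase genes TRMT6 and NSUN2 rose by 0.76 and 0.53. Of 14 genes for charging and maturation of mitochondrial tRNA 5 were called higher, among them TRMU, MTO1 and TRIT1, which modify tRNA bases (log2 changes 0.54, 0.27 and 0.69), and 3 lower. GATB, a subunit of the amidotransferase that completes mitochondrial glutaminyl-tRNA, fell by 0.42. Of 7 genes for proofreading and peptidyl-tRNA release PTRH2 rose by 0.59 and 4 were called lower, including PTRHD1 (-0.75), DTD2 (-0.39) and AARSD1 (-0.26), the last of which was not called without LG2 (-0.25, adjusted p = 0.0533). Of 20 genes of RNA polymerase III, which transcribes tRNA genes, 7 were called higher, among them POLR3F (0.66), CRCP (0.63) and POLR3C (0.35), and 4 lower, among them the alternative subunit gene POLR3GL (-0.96).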

How the data were processed

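RNA of 8 MDA-MB-157 libraries was sequenced on an Illumina HiSeq. The deposited values are TMM-scaled CPM made by the authors with edgeR; the submitters' processing notes name edgeR and hg38, while the study's methods, written for its tumors, name TopHat and hg19. The counting tool and its use of strand are not given in the sources used here. The counts behind the CPM were fractional and whole reads were not recovered, so depth was estimated by taking the most frequent positive value of a column as 1 read. After 18 repeated pseudoautosomal rows were dropped, 21059 genes were tested.

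Log2(CPM + 1) values, high minus low glucose, were fitted with limma 3.58.1 (R 4.3.3, mean-variance trend, 2-sided, Benjamini-Hochberg over all genes, called at an adjusted p under 0.05). Changes on this scale understate those of low genes. Values in every library were given for the 6 largest falls and rises among called members of at least 5 CPM. They were also given for pairs with opposite calls, EPRS, WARS, KARS, GARS, QARS and the scaffolds. At most 4 genes per partner list were named by smallest adjusted p, most with a mean or log2 change only. Genes named after their values were seen come on top of these. Values of 1 member and 1 partner gene are not reported here, though both are in the counts. The members and lists were chosen with earlier results of these data known. Positions and promoters are RefSeq on GRCh38.p14, and lengths, exon overlaps and shared 31-base words are from canonical GENCODE transcripts on GRCh37. On simulated data 98 of 100 genes changed 2-fold and 75 of 100 changed 1.5-fold were recovered, with 9 of 20859 unchanged genes called. The simulation gave every library the same spread and changed far fewer genes than were called here. Its rates therefore need not hold for these libraries, where HG1 stood apart. The limit of 3 reads covers counting error only, and SDs and SEs are over libraries.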

Additional observations from a re-analysis of the deposited data

Results flagged for a closer look

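In 11 of 138 groups of 4 libraries 1 library lay far from the other 3 (its gap to the nearest, divided by the range, above Dixon's 95% critical value), where chance, at about 1 in 20 groups, gives 6.9. Among the synthetases these were DARS in HG3 (46.6 CPM, next 51.95, ratio 0.879), TARS in HG4 (397 CPM, next 383, 0.83) and TARSL2 in LG2 (13.3 CPM, next 11.4, 0.877). DARS and TARSL2 kept their calls without that library, and TARS was called lower without HG4 (log2 change -0.07, adjusted p = 0.0392).

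For the scaffold AIMP2 the library was HG1 (65.0 CPM, next 53.4, ratio 0.85). Among partner genes it was LG4 for TSEN15 (0.939), LG3 for TRMT6 (0.841) and GBP2 (0.892), LG1 for PSAT1 (0.891), LG2 for SLC3A2 (0.859), and HG4 for SLC1A4 (0.83) and POLR3GL (0.907).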

How the results depend on the processing

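Over 15 alternatives 12 to 16 cytosolic and 7 to 10 mitochondrial synthetases were called lower, and 6 complex members were called lower in each. A pseudocount of 0.1 CPM and median-of-ratios scaling changed no call among the named genes. The calls for FARSB, VARS, EARS2, FARS2, NARS2, WARS2, YARS2 and AARSD1 were lost in some fits with 1 library left out, from 1 fit (AARSD1) to 7 (VARS, FARS2 and NARS2). Their log2 changes kept their sign in these fits, which also have fewer libraries to test with. Depth limits PARS2 and MARS2 most. The cause of the changes below was not tested.

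With 1 library left out, the number called higher was 1 to 3 for mitochondrial enzymes, 1 to 3 for mitochondrial class I and 1 to 2 for cytosolic enzymes outside the complex, and the number called lower 1 to 2 for mitochondrial class I, 0 to 1 for scaffolds and 1 to 3 for mitochondrial tRNA charging genes. The cytosolic median ranged from -0.29 to -0.23.

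With quantile normalization, 1 cytosolic enzyme, 0 complex members, 1 enzyme outside the complex and 1 of cytosolic class II were called higher. In the same setting 1 mitochondrial class I enzyme, 1 scaffold and 1 mitochondrial charging gene were called lower, the cytosolic median was -0.35, the cytosolic minus mitochondrial mean change was -0.28, and RARS turned to -0.039. With the length trend removed, 2 complex members, 1 cytosolic class I enzyme and 11 RNA polymerase III genes were called higher and 2 proofreading genes lower, the cytosolic median was -0.26, and HARS and RARS2 turned to 0.028 and 0.017. Testing genes of at least 5 CPM alone gave 1 scaffold called lower and 1 enzyme outside the complex called higher. Library weights gave 1 scaffold called lower and a cytosolic median of -0.29.

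Replicate numbers are shared between the groups, and the labels do not say whether they pair the samples. Same-numbered libraries did not deviate together (correlations of 0.0692, -0.028, 0.0136 and -0.0403), which cannot settle how the cultures were set up. With the replicate block, 4646 genes were called lower and 4275 higher, against 5213 and 4636 without it. Under that block 12 cytosolic enzymes were called lower and 3 higher, 8 mitochondrial enzymes lower and 1 higher, and 1 of mitochondrial class I higher.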
